A study of Gallus gallus with 16 samples.

Results

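The genes described here are every gene of the deposited count table that lies wholly within chromosome 3, 107900662 to 107917298, on the galGal5 build of the chicken genome: 3 of 24881 genes. They are ENSGALG00000016668, ENSGALG00000016669 and ENSGALG00000022815, and the interval carries the working label of the chicken beta-defensin cluster. The interval was marked out by earlier results on these libraries, namely the much higher level of these genes in negative cells at stage HH25 than in the labelled crest cells of that stage. Values of HH25 cells are therefore given as a description and without a test. The table does not pair its identifiers with gene names, and a RefSeq table of 25635 chicken genes on the GRCg7b assembly shares 0 identifiers with it. That table lists 14 avian beta-defensin genes, all 14 on chromosome 3 and in a row broken by 4 tRNA genes only. The interval's 3 genes are fewer than these 14, so the interval is not taken as the whole of that row. Whether the neighbours described below belong to the row was not determined. No defensin name is given to an identifier below, and the label itself rests on the chromosome alone as far as these tables go.

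As background, beta-defensins are small, positively charged secreted peptides, folded around disulphide bonds, that damage the membranes of microbes. Birds carry defensins of the beta class only. In the chicken several of them are stored in the granules of heterophils, the avian counterpart of neutrophils, and others are made by epithelia.

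RNA was measured in 16 libraries of cells sorted from the vagal region of wild-type chicken embryos, with 2 libraries for each of 8 groups. All embryos were electroporated with NC2:citrine and E2:citrine reporters, and the labels name citrine for both; NC2 is known as an enhancer of FOXD3 and E2 as an enhancer of SOX10, both neural crest transcription factor genes. E2 cells (NC2-, E2+) were collected at HH10, HH18 and HH25, DP cells (NC2+, E2+) at HH18 and HH25, and negative cells (NC2-, E2-) at all 3 stages, where HH is the Hamburger-Hamilton stage. Embryos of the earliest stage were electroporated at HH4, and those of both HH18 and HH25 at HH8 or HH9. Between the earliest stage and the later ones, stage and electroporation time therefore cannot be told apart. The sample records call the earliest stage HH10, and the table's column names call it H12. Libraries are called here by the number in the column name. Negative cells are all sorted cells without reporter signal, and no marker gene of any cell type could be looked up, so the makeup of no population was checked. Whether the 2 libraries of a group hold separate embryos or pools is not in the labels, and the p-values reflect library-to-library spread that may be technical.

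Library totals ran from 4032540 to 45313160 counts. The HH18 negative libraries, with 7692817 and 4032540 counts, were the shallowest of all 16. CPM below is the count per 1000000 counts after TMM scaling, and TPM is the count per base of exon, scaled to sum to 1000000 in a library. In bulk RNA a lower number of expressing cells and less RNA per cell cannot be told apart.

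The 3 genes lie close together and have similar gene models. ENSGALG00000016668 (107900662 to 107906657, plus strand) is followed after 4267 bases by ENSGALG00000016669 (107910925 to 107913428, plus strand), and that one after 1426 bases by ENSGALG00000022815 (107914855 to 107917298, minus strand). No other gene of the table overlaps the interval. ENSGALG00000016669 and ENSGALG00000022815 have 4 exon intervals each, of 66, 143, 121 and 204 bases and of 63, 88, 127 and 216 bases from the 5′ to the 3′ end. ENSGALG00000016668 has 8, and these form a repeated pattern. The first 4 measure 50, 86, 130 and 249 bases and the last 4 measure 52, 86, 130 and 234 bases. Its value may thus combine reads of more than 1 transcription unit; whether it does cannot be read from gene counts, nor can reads be assigned between similar copies, because how multiply mapped reads were counted is not given in the sources used here.

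**Figure D1:**
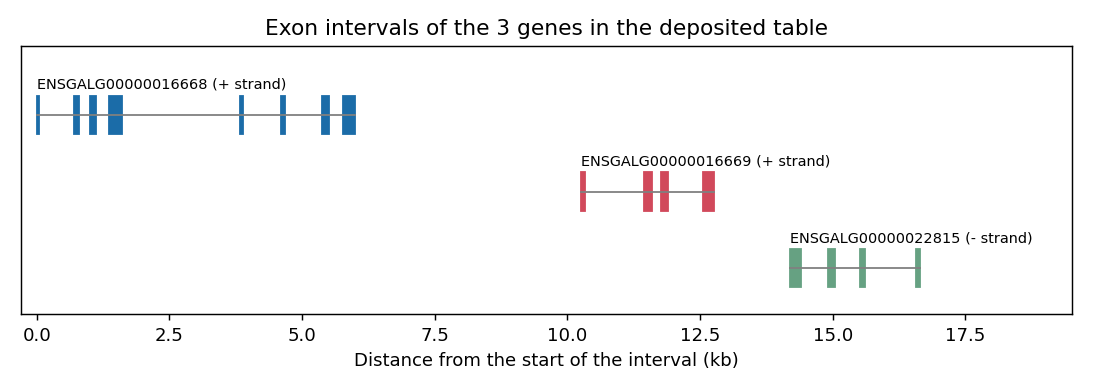
Exon intervals (boxes) of the 3 genes against the distance in kb from the start of the interval, with the strand beside each name. The 8 intervals of ENSGALG00000016668 fall into 2 sets of 4 with nearly the same lengths, and the other genes have 4 each.

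Across the 8 groups the interval's RNA was highest in negative cells of HH25 and next in negative cells of HH18. Elsewhere a library held at most 5 counts over the 3 genes, except HH18 DP library 2 with 31, all of ENSGALG00000022815. Summed over the 3 genes, no count was recorded at HH10 in E2 or in negative cells. A count of 0 over both libraries allows up to 0.0489 CPM in HH10 E2 and 0.0466 CPM in HH10 negative cells (3 counts over the group; such limits and all intervals cover counting error only). At HH18 the sum was 0.180 and 1.70 CPM in the DP libraries, 0.0450 and 0.101 CPM in the E2 libraries, and 29.7 and 229 CPM in the negative libraries. At HH25 it was 0.313 and 0.119 CPM in the DP libraries, 0 in both E2 libraries, and 3469 and 3308 CPM in the negative libraries. The order of group means was thus HH25 negative (3389 ± 114 CPM, SD, n = 2), HH18 negative (129 ± 141 CPM), HH18 DP (0.941 ± 1.08 CPM), HH25 DP (0.216 ± 0.137 CPM), HH18 E2 (0.0731 ± 0.0397 CPM), and then HH25 E2 and both HH10 groups at 0. HH18 and HH25 negative cells did not overlap in this order, and neither overlapped any labelled group. HH18 DP and HH25 DP overlapped, and HH18 E2, on 3 counts in all, did not stand apart from the groups at 0 at this depth.

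**Figure D2:**
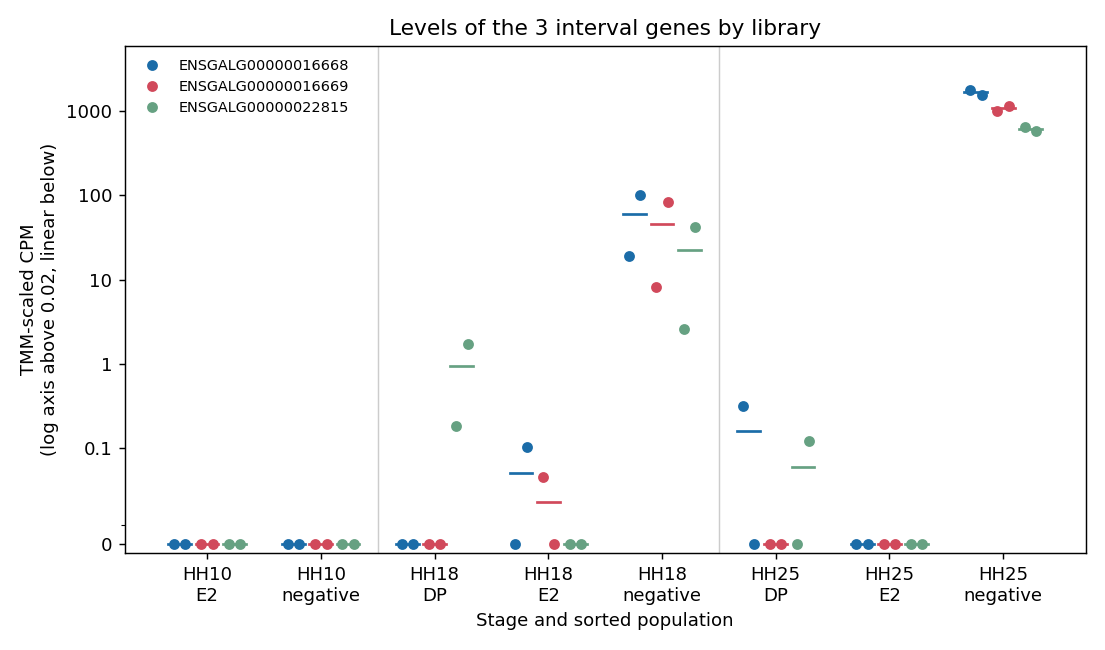
TMM-scaled CPM of each gene (points, 1 per library; bars, group means of 2 libraries) in the 8 groups, on an axis that is logarithmic above 0.02 and linear below. All 3 genes are high in HH25 negative cells, lower and spread in HH18 negative cells, and at or near 0 in the other groups, where ENSGALG00000022815 in HH18 DP cells is the highest, at 0.180 and 1.70 CPM.

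All 3 genes were lower in E2 than in negative cells at HH18, in libraries other than those that marked out the interval. ENSGALG00000016668 had 0 and 2 counts in the E2 libraries (0 and 0.101 CPM), against 139 and 363 counts in the negative libraries (19.0 and 102 CPM). In pooled counts it was 969-fold lower in E2 cells (95% interval 267 to 8027). ENSGALG00000016669 had 1 and 0 counts in the E2 libraries (0.0450 and 0 CPM), against 59 and 300 in the negative libraries (8.07 and 84.1 CPM), a ratio whose interval is wide on a single count (1387-fold lower in E2 cells, 247 to 54920). ENSGALG00000022815 had no count in E2 cells, against 19 and 152 counts in the negative libraries (2.60 and 42.6 CPM), and was at least 220-fold lower. The sizes rested on negative library 2, without which ENSGALG00000016668 was 399-fold, ENSGALG00000016669 339-fold and ENSGALG00000022815 at least 36.4-fold lower in E2 cells; without negative library 1 they were 2138-fold, 3534-fold and at least 597-fold. Without E2 library 1 or 2 the bound of ENSGALG00000022815 was 104-fold and 117-fold. For every gene both E2 libraries lay below both negative libraries, although the negative libraries had fewer counts in total. Such an order was found in 23.7% of all 14676 genes tested.

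The 3 genes were called lower in this comparison, where 0.736% of all genes tested were called lower (edgeR quasi-likelihood test, Benjamini-Hochberg adjusted over all genes, called below 0.05). The fit behind this and the later comparisons took the spread from all 16 libraries. Its calls are thus not independent of the HH25 libraries that marked out the interval. Outside negative cells no library held more than 5 counts of a gene, except HH18 DP library 2 with 31 of ENSGALG00000022815. The 3 genes therefore passed the filter on low counts through negative libraries. A call in the other direction was hardly possible for them. The share over all genes is thus no fair measure here or in the later comparisons that include HH18 negative cells. The adjusted p was 0.0057 for ENSGALG00000016668, 0.012 for ENSGALG00000016669 and 0.034 for ENSGALG00000022815. The median log2 fold change was -10.56 over the 3 genes and 0.01 over all genes tested; with group counts at or near 0 the fitted values depend on the prior count. The calls did not hold without HH18 E2 library 1, nor without E2 library 2. Each of these fits left 1 library in the E2 group. The log2 fold changes there lay between -13.19 and -9.17. With the HH25 libraries left out of the fit the adjusted p values were 0.061, 0.086 and 0.16 in the same gene order (edgeR). That fit had fewer samples and also lacked the libraries that marked out the interval. Which of these mattered was not tested. The call of ENSGALG00000022815 also ended without negative library 2 (adjusted p = 0.11), and DESeq2 called this gene only (adjusted p = 0.022, against 0.39 and 0.50 for ENSGALG00000016668 and ENSGALG00000016669).

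DP cells at HH18 were also below negative cells, in a comparison that shares its negative libraries with the one above. ENSGALG00000016668 and ENSGALG00000016669 had no count in either DP library and were lower than in negative cells by at least 451-fold and at least 323-fold. These bounds were 186-fold and 78.9-fold without negative library 2, 995-fold and 822-fold without negative library 1, 280-fold and 201-fold without DP library 1, and 171-fold and 122-fold without DP library 2. ENSGALG00000022815 was the only one of the 3 with counts in DP cells of this stage: it had 2 and 31 counts in the DP libraries (0.180 and 1.70 CPM), against 19 and 152 counts in the negative libraries (2.60 and 42.6 CPM). In pooled counts it was 14.0-fold lower in DP cells (9.58 to 20.9), but 2.31-fold without negative library 2, 37.9-fold without negative library 1, 9.24-fold without DP library 1 and 87.2-fold without DP library 2. The DP libraries were below the negative libraries for each of the 3 genes, as in 23.6% of all genes tested. Of the 3 genes, 2 were called lower (adjusted p = 0.011 for ENSGALG00000016668, 0.019 for ENSGALG00000016669 and 0.22 for ENSGALG00000022815, edgeR). Across all genes tested 0.368% were called lower. The 2 called genes had no count in DP cells, so that a call in the other direction was impossible for them. That share is thus no fair measure here either. Without DP library 1 the adjusted p of the called genes was 0.080 and 0.12, without DP library 2 it was 0.064 and 0.094, without the HH25 libraries 0.076 and 0.11, and with DESeq2 0.25 and 0.43. ENSGALG00000022815 was called without negative library 1 (adjusted p = 0.048) and in the fit with no filter on low counts (adjusted p = 0.034), and its log2 fold change of -4.45 moved to -1.35 without negative library 2.

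Between DP and E2 cells at HH18 the 3 genes were not told apart. ENSGALG00000022815 had 33 counts in the DP libraries together and none in the E2 libraries, at least 15.8-fold higher in DP cells, with both DP libraries above both E2 libraries (as in 15.6% of all genes tested). DP library 2 held 31 of the 33 counts, and without it the 2 counts left were under the floor of 3 and allow no fold. Without DP library 1 the bound was 23.8-fold, and without E2 library 1 or 2 it was 7.42-fold and 8.34-fold. Its adjusted p was 0.36, and edgeR called 0 of the 3 genes, with 1 at an unadjusted p below 0.05; DESeq2 likewise called 0, with 1 at an unadjusted p below 0.05. Across all genes 0.368% were called in either direction. The other genes had at most 2 counts in either group, at or under the floor of 3 counts, and no fold is given for them.

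Within negative cells the 3 genes were higher at HH18 than at HH10. All of them had counts in both HH18 libraries and none in either HH10 library, although the HH10 negative libraries held 22574825 and 39385794 counts. Electroporation time also differed between these stages and cannot be told apart from stage. The bounds were at least 991-fold higher for ENSGALG00000016668, at least 709-fold for ENSGALG00000016669 and at least 338-fold for ENSGALG00000022815. In the same gene order they were 408-fold, 173-fold and 55.8-fold without HH18 negative library 2, and 2187-fold, 1807-fold and 916-fold without HH18 negative library 1. Without HH10 negative library 1 they were 650-fold, 465-fold and 221-fold, and without HH10 negative library 3 they were 342-fold, 244-fold and 116-fold. The order of libraries was shared with 27.5% of all genes tested, and 1.96% of all genes were called higher. All 3 genes were called (edgeR, adjusted p = 0.0018, 0.0040 and 0.012 in the same gene order). With no count at HH10, a call in the other direction was impossible for them. The share over all genes is thus no fair measure here. The spread again came from a fit that held the HH25 libraries. The call of ENSGALG00000022815 ended without HH10 negative library 1 (adjusted p = 0.075), without library 3 (0.11) and without the HH25 libraries (0.083), and DESeq2 called only this gene (adjusted p = 0.0071, against 0.086 and 0.18 for the others).

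The remaining comparisons held too few counts. At HH10 no count was found in E2 or negative cells, so that a call between them was impossible. Between HH18 and HH10 E2 cells the sum was 3 counts against 0, so that a call was hardly possible. In both comparisons edgeR called 0 of 3 genes, with 0 at an unadjusted p below 0.05, as did DESeq2. Across all genes edgeR called 1.66% and 4.84%, and nothing is read from the 0 of 3. Whether the difference between E2 and negative cells was larger at HH18 than at HH10 could not be estimated, because both HH10 groups were at 0. The fit called 0 of 3 genes for it, with 0 at an unadjusted p below 0.05, and DESeq2 called 0, with 1 at an unadjusted p below 0.05; edgeR called 0.804% of all genes.

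At HH25, the stage on whose libraries the interval was chosen, the genes were among the most abundant of negative cells. On the TPM scale, ENSGALG00000016669 stood at 2304 and 2979 TPM in the HH25 negative libraries and ranked 28 and 20 among the 12787 and 13144 genes with counts. ENSGALG00000016668 stood at 2158 and 2080 TPM (ranks 35 and 43) and ENSGALG00000022815 at 1607 and 1630 TPM (ranks 83 and 66). Per length, ENSGALG00000016669 was therefore the highest, whereas the longer ENSGALG00000016668 had the most counts. That order assumes that the reads of ENSGALG00000016668 come from the whole of its repeated exon pattern, which was not tested. Together they held 0.325% and 0.322% of all counts of these libraries. In HH18 negative library 1 the ranks were 4800, 5322 and 8020 of 14174 genes in the order along the chromosome, and in library 2 they were 1443, 895 and 1681 of 13760 genes.

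The labelled cells of HH25 held little of this RNA. DP cells had 4 counts of ENSGALG00000016668 in library 2, 5 counts of ENSGALG00000022815 in library 3 and no count of ENSGALG00000016669. The sum was 20787-fold lower in DP than in negative cells in pooled counts (10950 to 45461). E2 cells had no count of any of the 3 genes, which puts their sum at least 23840-fold below that of negative cells. In both comparisons all 3 genes lay below both negative libraries, as 26.8% and 22.2% of all genes tested did; since the genes were chosen on this difference, nothing is read from it. Between the stages, the sum in negative cells was 36.0-fold higher at HH25 than at HH18 in pooled counts (33.9 to 38.3). That interval covers counting error only, not the spread between the HH18 negative libraries, at 29.7 and 229 CPM. Both HH25 libraries lay above both HH18 libraries for each gene (27.5% of all genes tested). In the means of the libraries, which weight both libraries of a group alike, the sum was 26.2-fold higher.

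The HH18 negative libraries differed from each other far more than the HH25 negative libraries did. In HH25 negative cells the sum in library 2 was 0.954 times that in library 1, while in HH18 negative cells library 2 had 7.70 times the level of library 1. The statement that HH18 negative cells stand between the HH10 and HH25 levels holds for each library alone, at 29.7 and 229 CPM, but the size of the step does not.

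The proportions of the 3 genes varied among the negative libraries of HH25 and HH18. HH18 negative library 1 stood farthest from the others for ENSGALG00000016668 and ENSGALG00000022815. ENSGALG00000016668 supplied 52.0% (51.6 to 52.4) and 46.9% (46.3 to 47.5) of the interval's counts in the HH25 negative libraries, and 64.1% (57.3 to 70.4) and 44.5% (41.1 to 48.0) in the HH18 negative libraries (exact 95% binomial intervals). ENSGALG00000016669 supplied 29.2% (28.8 to 29.5) and 35.3% (34.7 to 35.8) at HH25, and 27.2% (21.4 to 33.6) and 36.8% (33.5 to 40.2) at HH18. For this gene the interval of HH18 negative library 1 held the value of HH25 negative library 1. ENSGALG00000022815 supplied 18.8% (18.5 to 19.1) and 17.9% (17.4 to 18.3) at HH25, and 8.76% (5.35 to 13.3) and 18.7% (16.03 to 21.5) at HH18. HH18 negative library 1, the lower library of that group, thus had the highest share of ENSGALG00000016668 and the lowest of ENSGALG00000022815, whose share was 17.9% to 18.8% in the other 3 negative libraries of these stages. In HH18 DP library 2 all 31 counts of the interval came from ENSGALG00000022815 (100%, 88.8 to 100). That share is outside the range of every negative library.

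**Figure D3:**
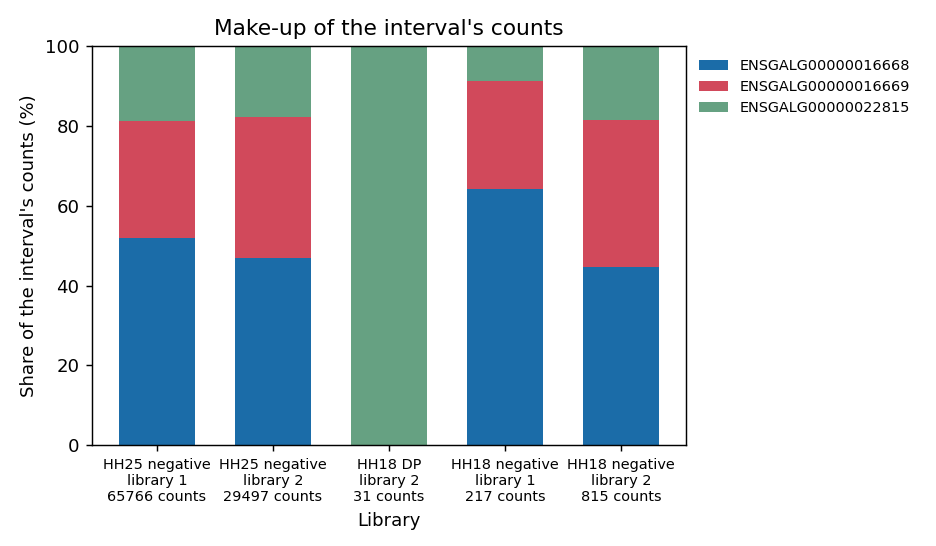
Share of the interval's counts (%) from each gene in the 5 libraries with at least 20 counts there; the total is printed under each bar. ENSGALG00000022815 makes up all 31 counts of HH18 DP library 2 and 8.76% to 18.8% in the 4 negative libraries.

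Of the 10 genes before and the 10 genes after the interval, 12 passed the filter on low counts and 14 reached 1 CPM in a library. HH25 negative cells had the highest group mean in 10 of the 20, but at far lower levels. Some of the 10 had counts in only 1 of the HH25 negative libraries, such as ENSGALG00000019847 with 56 and 0 counts. The share of all genes highest in that group was not computed, so nothing is read from the 10. Just outside the interval, ENSGALG00000019844 (2415 bases before it) had 2.64 and 1.23 CPM in the HH25 negative libraries and ENSGALG00000016670 (2168 bases after it) 10.9 and 4.6 CPM, against 1804 and 1551 CPM for ENSGALG00000016668 and 653 and 591 CPM for ENSGALG00000022815, the members next to them. Neither neighbour had a count in any HH18 library. Whether these neighbours are part of the same gene cluster is not known, so the drop in level is not read as its boundary.

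ENSGALG00000042193 (107924843 to 107926246) had 43.8 and 28.0 CPM in HH25 negative cells, and unlike the nearer neighbours it was found at HH18. At HH18 it had 2.43 and 7.30 CPM in DP cells, 1.62 and 0.657 CPM in E2 cells, and 0 and 0.280 CPM in negative cells, so that negative cells were the lowest group; the differences from negative cells were not called (adjusted p = 0.18 for DP and 0.56 for E2 against negative cells, edgeR). In E2 cells it was higher at HH18 than at HH10, where it had no count (adjusted p = 0.020). ENSGALG00000016667 (107884725 to 107887441) had no count in either HH18 E2 library, against 3.08 and 7.69 CPM in the HH10 E2 libraries (adjusted p = 0.032). Of the 12 neighbours tested, these 2 were called in HH18 against HH10 E2 cells, where 4.84% of all genes were called. ENSGALG00000019844 and ENSGALG00000016670, both among the 12, had no count at HH10 or HH18, so that a call was impossible for them. Further genes of the 12 had no count in either group of some comparisons, such as ENSGALG00000016667 within HH18 and ENSGALG00000042193 at HH10. A call was impossible there too. In each of the other 6 comparisons without HH25 libraries 0 were called, with 1 or 2 at an unadjusted p below 0.05. The share of all genes called there was 0.79% for E2 and 0.463% for DP against negative cells at HH18, 0.368% for DP against E2 cells, 2.44% for negative cells of HH18 against HH10, 1.66% for E2 against negative cells at HH10 and 0.804% for the difference between stages, so that 0 of 12 does not set the neighbours apart from other genes. Both calls ended without HH10 E2 library 3 (adjusted p = 0.12 for ENSGALG00000042193 and 0.060 for ENSGALG00000016667), without HH18 E2 library 1 (0.084 and 0.20) and without the HH25 libraries (0.098 and 0.072), and that of ENSGALG00000016667 also without HH18 E2 library 2 (0.11).

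**Figure D4:**
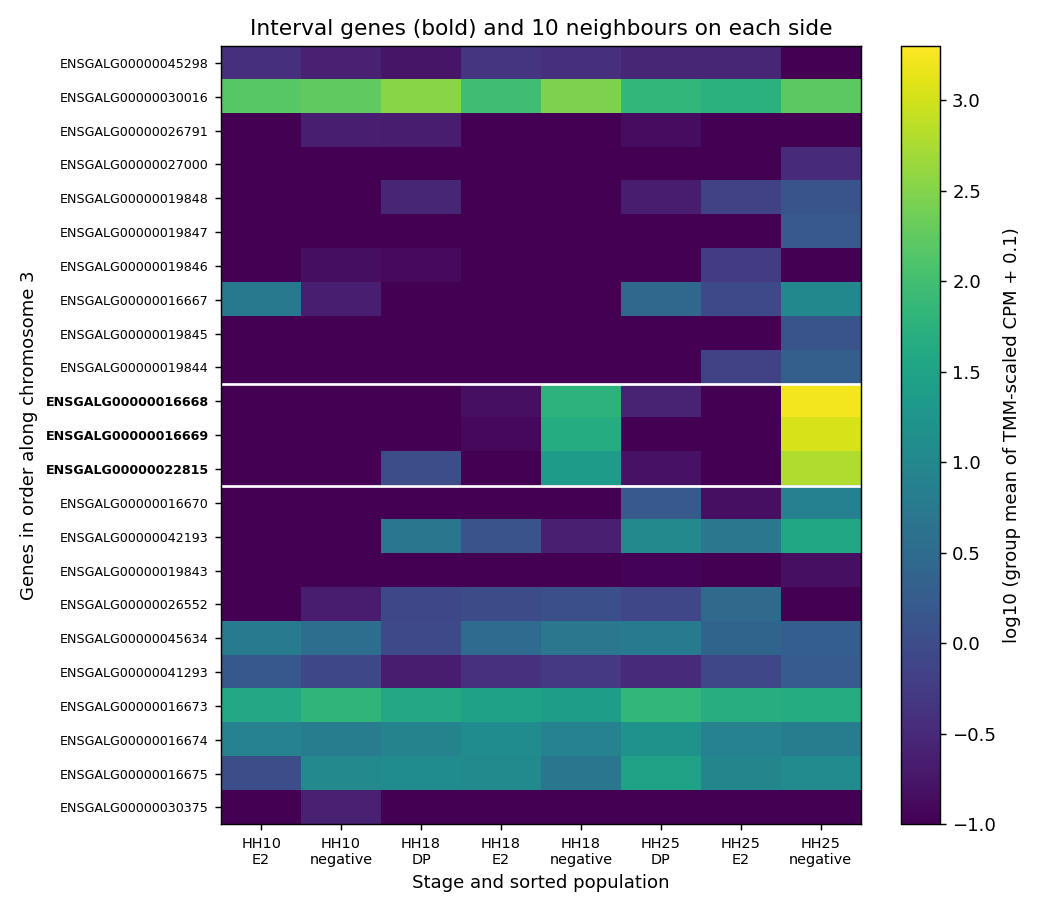
Group means of TMM-scaled CPM, as log10 of CPM plus 0.1, for the 3 genes (bold, between white lines) and 10 neighbours on each side in chromosome order (rows), in the 8 groups (columns). The 3 genes are bright in negative cells of HH18 and HH25, and the genes next to them are dimmer there. Farther off, ENSGALG00000030016 and ENSGALG00000016673 are bright in every group, with 289 and 25.2 CPM in HH18 negative cells.

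The gene whose levels were most like the interval's sum was ENSGALG00000006323 on chromosome 13 (15273853 to 15278709, plus strand, 7 exon intervals). Its log2 CPM had a Pearson correlation of 0.99 with that of the sum over the 16 libraries (Spearman's rho 0.73), and of 0.99 over the 8 group means. It had 1918 and 2332 CPM in the HH25 negative libraries and 32.4 and 270 CPM in the HH18 negative libraries, where library 2 was again the higher one. In the labelled cells and at HH10 it did not exceed 0.878 CPM, the value of HH18 DP library 2. The next were ENSGALG00000019696 on chromosome 2 (4020689 to 4022467; r = 0.97), ENSGALG00000032560 on chromosome 14 (12157827 to 12158420; 0.96), ENSGALG00000021791 on chromosome 19 (5863191 to 5863275; 0.95) and ENSGALG00000029521 on chromosome 10 (19087903 to 19091871; 0.94). Of these 5 genes, 3 were again among the first 5 with a prior count of 0.5 in place of 2, and 1 without the HH25 negative libraries. Of the last 4, only ENSGALG00000019696 reached a similar scale, at 772 and 637 CPM in the HH25 negative libraries and 9.58 and 33.7 CPM in the HH18 negative libraries; the other 3 averaged 2.05 to 11.2 CPM at HH25. These correlations describe a contrast between a few negative libraries and the rest. Without the HH25 negative libraries that of ENSGALG00000006323 was 0.96 over 14 libraries, and without the HH18 negative libraries as well 0.60 over 12, while those of the other 4 then lay between -0.31 and -0.02 or, for ENSGALG00000032560 with no count there, could not be computed. The negative libraries of these stages thus carry the likeness.

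Set beside other runs of neighbouring genes that were high in negative cells, the interval resembled the run on chromosome 2 (4 genes from ENSGALG00000034150 to ENSGALG00000027973, ENSGALG00000019696 among them, working label cathelicidin cluster) more than the run on chromosome 21 (3 genes from ENSGALG00000004771 to ENSGALG00000021569, working label C1q-like). In the chromosome 2 run ENSGALG00000027490 had no count in any library. That run had 0.450 and 1.04 CPM in the HH10 negative libraries and 0.965 and 3.22 CPM in the HH25 E2 libraries. The chromosome 3 sum was 0 in these libraries. The chromosome 2 run had 0.812 and 0.494 CPM in DP, 0.360 and 0.758 CPM in E2, and 15.2 and 60.6 CPM in negative libraries at HH18. The chromosome 21 run had 767 and 779 CPM in DP, 27.9 and 15.0 CPM in E2, and 471 and 406 CPM in negative libraries at that stage. It was thus abundant in HH18 DP cells, where the chromosome 3 sum was 0.180 and 1.70 CPM. The mean in negative cells at HH25 was 26.2 times that at HH18 for the chromosome 3 interval, 40.6 times for the chromosome 2 run and 1.47 times for the chromosome 21 run. HH18 negative library 2 was 7.70 times library 1 for the chromosome 3 interval, 3.99 times for chromosome 2 and 0.861 times for chromosome 21. These 3 runs were all chosen on results of these libraries, and their difference was not tested.

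**Figure D5:**
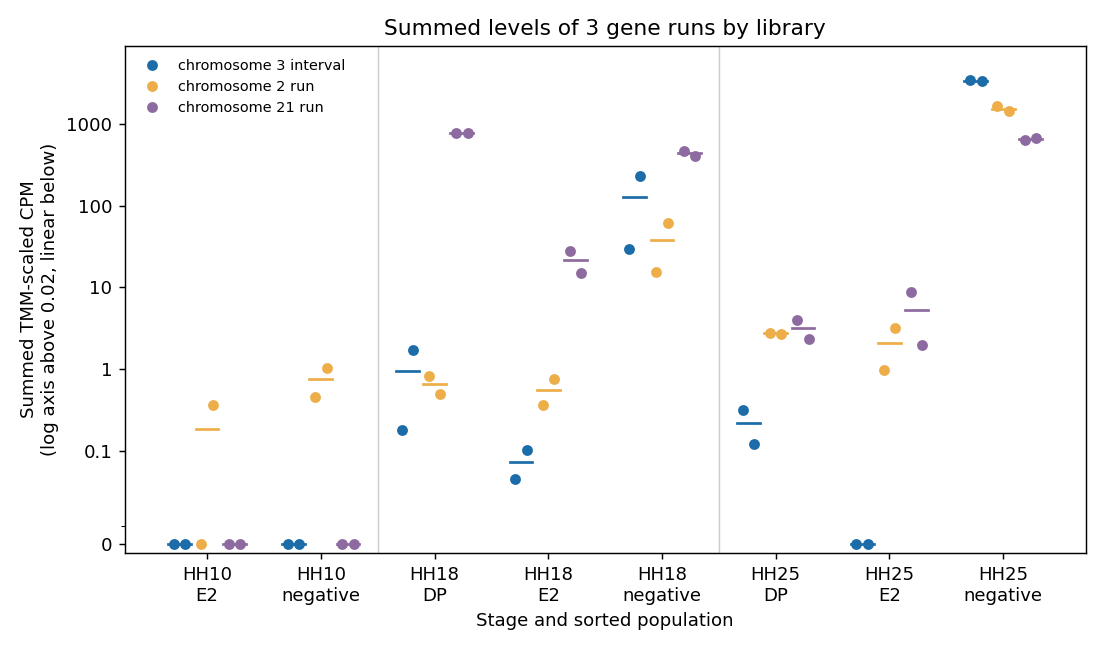
Summed TMM-scaled CPM of the chromosome 3 interval, the chromosome 2 run and the chromosome 21 run (points, 1 per library; bars, means of 2) in the 8 groups, on an axis that is logarithmic above 0.02 and linear below. The chromosome 21 run is high in HH18 DP cells, at 767 and 779 CPM, whereas the other runs are below 2 CPM there.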

How the data were processed

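The deposited table holds raw counts per gene for 16 libraries, with exon coordinates and lengths, and no normalization by the authors. Per the submitters' processing notes, the tools named are featureCounts, DESeq2, Subread 1.4.5 and STAR 2.4.2a, and the build is galGal5; per the labels' protocols, cDNA was made with a low-input full-length kit, RNA had a RIN above 6 and reads were 40 bp pairs. Whether strand was used in counting is not given in the sources used here. Columns numbered 2 and 3 (HH25 DP) or 1 and 3 (HH10) were matched to groups, not to single records. The test was the quasi-likelihood F test of edgeR 4.0.16, run under R 4.3.3 with TMM scaling and filterByExpr (which kept 14676 genes including all 3 described here), in 1 fit of 8 group means with 8 residual degrees of freedom, and called at an adjusted p below 0.05; DESeq2 1.42.0 was an alternative. Folds come from pooled counts divided by pooled TMM-scaled library sizes, with exact 95% intervals; against 0 counts a floor of 3 counts over the group was used. Gene lists of blood, crest and other cell types could not be matched to identifiers and were not used. The named genes are the 3 of the interval, neighbours reaching 1 CPM in a library where a result turns on them, and the 5 with the highest Pearson correlation with the sum (prior count 2). The interval and lists were chosen with earlier results of these data known.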

Additional observations from a re-analysis of the deposited data

How the results depend on the processing

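Of the 3 genes, 3 were called lower in HH18 E2 than in negative cells, 2 in HH18 DP than in negative cells, and 3 were called higher in HH18 than in HH10 negative cells. With DESeq2 these counts were 1, 0 and 1. With HH10 and HH18 libraries alone they were 0, 0 and 2, in a fit of fewer samples. That fit also lacked the HH25 libraries that marked out the interval. Leaving out single libraries gave 0 to 3, 0 to 3 and 2 to 3; the lone library left in a group was then assumed to vary like the other groups. DESeq2 size factors in edgeR, no filter and a stricter filter left the first and the last at 3, and the second at 2 or 3. No gene changed direction in these 3 comparisons in any setting run. In most of these pairs the lower group held counts at or near 0, so that a change of direction was hardly possible. The mean sum in HH25 negative cells was 3389 CPM with TMM, 3595 CPM with DESeq2 size factors and 3234 CPM by total counts; its library values were 3308 and 3469 CPM. Of the 5 genes named by likeness, 3 were again among the first 5 with a prior count of 0.5, and 1 without the HH25 negative libraries. A further fit took the replicate number as a block in HH18, and separately in HH25 E2 and negative cells. Its calls at HH18 were 3 in E2 and 2 in DP against negative cells, and 0 in DP against E2 cells. The numbers are not known to pair samples: correlations of same-numbered deviations at HH18 were -0.12, -0.01 and -0.03. At 4032540 counts, the shallowest library limits what HH18 negative cells can show, and 3 counts in that group amount to 0.276 CPM.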
